A study of Mus musculus with 4 samples.

Results

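Tppp3, Pdgfra, Prg4, Ly6a, Cd34, Dpp4, Pi16, Has1, Cd55 and Clec3b are used as markers of the progenitor cells and lining cells of the tendon sheath. These 10 genes were taken by their symbols from the 32285 genes measured in the injured mouse Achilles tendon, and all 10 passed the filter on low counts. Frozen 10 µm sections were laid on Visium arrays, whose spots carry barcodes that record where in the tissue an RNA lay, and RNA molecules were counted by their unique molecular identifiers (UMIs). The sections were cut lengthwise through the injury site 14 days after a 0.5 mm punch was made in the tendon about 2 mm above the heel bone. There were 2 sections of TrkA F592A mice given 1NMPP1 (F592A 1 and F592A 2) and 2 sections of TrkA WT control mice (WT 1 and WT 2). All mice were 12 weeks old and of both sexes, and all had the injury. TrkA, the receptor for nerve growth factor, is carried by pain-sensing and sympathetic neurons, and its F592A form can be blocked by the compound 1NMPP1. The study asks how the injury site differs when that signal is inhibited. The labels list 1NMPP1 for the F592A sections and "Control" for the WT sections, without saying whether WT mice were also given 1NMPP1, so effects of the genotype and of the compound cannot be told apart. For each genotype 4 mice were pooled, with no record of which section came from which animal. The p-values thus reflect how sections vary, which may be technical. By the counts given below, the WT sections differed in sex, so they came from different animals.

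A tendon is wrapped in a thin sheath of loose connective tissue, the paratenon, whose cells glide, lubricate and supply cells for repair. Work in mice has described cells of the sheath that carry both Tppp3 and Pdgfra as progenitors of new tenocytes. Ly6a, Cd34, Dpp4, Pi16, Cd55 and Clec3b are shared with the progenitor-like fibroblasts of the adventitia and fascia of many organs, and Prg4 and Has1 make the lubricin and hyaluronan of gliding surfaces. None is exclusive to the sheath: Cd34 and Ly6a are also made by endothelium, and Prg4 by cartilage at joint surfaces. A Visium spot covers several cells, so genes found in the same spot need not share a cell. In sums over spots, fewer cells of a type and less RNA per cell cannot be told apart.

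Stretches upstream of 3 members are shown because Has1 had the largest fold between groups and because Pi16 and Cd34 lay together in the tissue, as described further on. The RefSeq promoter table (build GRCm38.p6) matched 6 of the 10 members, and Tppp3, Prg4, Ly6a and Clec3b were not matched. Its 250 bases before each start were searched on both strands for TATAAA (the TATA box), CCAAT (the CCAAT box), GGGCGG (a GC box), TGACTCA (an AP-1 site), TGACGTCA (the cyclic AMP response element) and CAGATG (an E box), and the matches are in capitals. The Has1 stretch lies on the minus strand at chr17:17855253-17855282 and the Pi16 stretch on the plus strand at chr17:29318806-29318835, both inside the RefSeq interval of their gene. The Cd34 stretch, chr1:194938571-194938820 on the plus strand, ends at the base before the RefSeq gene interval.
Has1: cagacttgtccTGACGTCAgccctcctcca
Pi16: tcctcatcttacCCAATcctgtaggggcag
Cd34: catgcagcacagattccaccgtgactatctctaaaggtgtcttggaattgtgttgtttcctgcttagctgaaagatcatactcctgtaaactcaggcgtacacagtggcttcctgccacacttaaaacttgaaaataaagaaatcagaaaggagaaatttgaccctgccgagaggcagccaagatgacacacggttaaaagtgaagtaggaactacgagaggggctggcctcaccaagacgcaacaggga
The Has1 stretch holds TGACGTCA, which starts 83 bases before the start and which 1.55% of the 32851 windows in the table contain. The Pi16 stretch holds CCAAT, found in 33.8% of windows, and the Cd34 window holds none of the 6 motifs. The other motifs occurred in 12.4% (TATAAA), 32.7% (GGGCGG), 4.46% (TGACTCA) and 14.4% (CAGATG) of windows. Motif matches did not overlap in the stretches shown.

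The sections held 30154873 to 43957617 UMIs over 2027 to 3047 tissue spots. WT 2 stood apart in 2 ways. Connective spots, those with under 10% of UMIs from muscle genes and under 2% from epidermis and hair genes, made up 85.0% of its kept spots against 61.9% to 64.4% in the others. It also held 4207 UMIs of the female-specific Xist against 7 to 12. Genes of the Y chromosome had 7723, 7522 and 7918 UMIs in F592A 1, F592A 2 and WT 1, against 23 in WT 2. By these counts WT 2 was female and the others male, so sex was not balanced between groups. Leaving out WT 2 also removes the only female section. The F592A sections were the closest pair, since their gene counts gave a chi-square of 20.7 per degree of freedom, against 38.7 to 53.6 for other pairs, and they shared 2429 spot barcodes, each at the same array place. Other pairs shared 994 to 2039. Barcodes name array places, so sharing them does not mean shared cells.

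No member passed the test between groups, although the sheath pair, both lining genes and Ly6a were higher in both F592A sections than in both WT sections. Levels are given in CPM, the UMIs of a gene per 1000000 UMIs of the summed spots, and log2 fold changes are F592A over WT with their standard error (SE). Calls were made with edgeR (quasi-likelihood, Benjamini-Hochberg adjusted p under 0.05). In whole sections 13 of 16347 genes, or 0.0795%, passed (0.0306% higher and 0.0489% lower), and 0 of the 10 members did. Of the members, 5 had both F592A sections above both WT sections and none had the opposite order, against 23.4% and 20.3% of all tested genes. In connective spots 8 of 15915 genes passed (0.0503%, with 0.0189% higher and 0.0314% lower), again 0 members, and 6 members had both F592A sections on top, against 22.2% of genes. The groups did not overlap, in either order, for 43.7% of genes in whole sections and 44.3% in connective spots. The median log2 fold change of the 10 was 0.22 in whole sections and 0.27 in connective spots, against −0.00034 and 0.00092 over all tested genes. At an unadjusted p under 0.05, edgeR counted 1927 genes in whole sections and 1958 in connective spots, and DESeq2 called 418 and 445 genes after adjustment.

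Has1, a synthase that spins hyaluronan into the space around cells, differed most. It had 32.9 and 43.6 CPM in the F592A whole sections, against 5.34 and 14.2 CPM in the WT sections, from 1444, 1616, 229 and 427 UMIs. Both F592A sections lay above both WT sections, and WT 1 was the lowest. The log2 fold change was 1.95 ± 0.45 in whole sections (edgeR adjusted p = 0.236) and 2.05 ± 0.44 in connective spots (edgeR adjusted p = 0.211). The gap was thus large beside its SE, and the adjusted p still missed the threshold. The call turned on the choice of samples and genes: the adjusted p in whole sections was 0.00605 without WT 1, 0.000259 without WT 2 and 0.0017 with no filter on low counts, but 0.492 without F592A 1 and 0.943 without F592A 2. The log2 fold change itself was 1.37 without WT 1 and 2.85 without WT 2.

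Prg4, which encodes the lubricant lubricin, had 339 and 394 CPM in F592A whole sections, against 209 and 277 CPM in WT sections. The groups did not overlap, and the F592A sections differed from each other less than from WT 1. Its log2 fold change was 0.56 ± 0.18 in whole sections (edgeR adjusted p = 0.346) and 0.68 ± 0.17 in connective spots (edgeR adjusted p = 0.257). In connective spots DESeq2 gave an adjusted p of 0.00643 and edgeR with no filter 0.0337. In whole sections the value was 0.35 without WT 1 (edgeR adjusted p = 0.408) and 0.82 without WT 2 (edgeR adjusted p = 0.046).

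Tppp3, a protein that promotes tubulin polymerization, had 125 and 136 CPM in F592A whole sections, against 88.1 and 118 CPM in WT sections. Pdgfra, the receptor for platelet-derived growth factor A, had 97.4 and 90.1 CPM in F592A sections, against 75.5 and 75.8 CPM in WT sections. For both genes the groups stood apart, narrowly for Tppp3. In connective spots the log2 fold change was 0.46 ± 0.19 for Tppp3 (edgeR adjusted p = 0.423) and 0.35 ± 0.095 for Pdgfra (edgeR adjusted p = 0.286). Tppp3 fell to 0.21 without WT 1 and stood at 0.75 without WT 2, so its size depended on which WT section was used. Over the leave-outs of a section Pdgfra kept to 0.27 to 0.42.

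Ly6a, the surface protein Sca-1, had 874 and 878 CPM in F592A whole sections, against 456 and 672 CPM in WT sections. The F592A pair was tight and the WT pair wide. The log2 fold change was 0.60 ± 0.22 in whole sections (edgeR adjusted p = 0.395) and 0.68 ± 0.21 in connective spots (edgeR adjusted p = 0.326, DESeq2 adjusted p = 0.0273). In whole sections the value was 0.32 without WT 1 (edgeR adjusted p = 0.517) and 0.95 without WT 2 (edgeR adjusted p = 0.0403). Reads of Ly6a can be split with its paralogs, Ly6c1 among them, so its count is less certain than the others.

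The remaining adventitial genes overlapped between groups in whole sections. Cd34, a sialomucin of endothelium and stromal progenitors, had 288 and 294 CPM in F592A sections, against 241 and 293 CPM in WT sections. Pi16, a secreted peptidase inhibitor, had 247 and 278 CPM in F592A sections, against 209 and 351 CPM in WT sections. Clec3b, the plasminogen-binding protein tetranectin, had 226 and 259 CPM in F592A sections, against 175 and 338 CPM in WT sections. For these genes the WT sections bracketed the F592A pair or nearly did. Cd55, which speeds the decay of complement convertases, had 71.3 and 79.5 CPM in F592A sections, against 43.7 and 89.3 CPM in WT sections. Dpp4, a surface dipeptidase, had 11.9 and 14.2 CPM in F592A sections, against 10.5 and 13.7 CPM in WT sections. Their log2 fold changes ran from −0.13 ± 0.26 (Pi16) to 0.15 ± 0.33 (Cd55), with edgeR adjusted p of 0.845 to 0.923. Leaving out WT 2 took Cd55 to 0.80 (edgeR adjusted p = 0.0164), Clec3b to 0.48 and Pi16 to 0.34, while leaving out WT 1 took them to −0.30, −0.54 and −0.48.

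**Figure D1:**
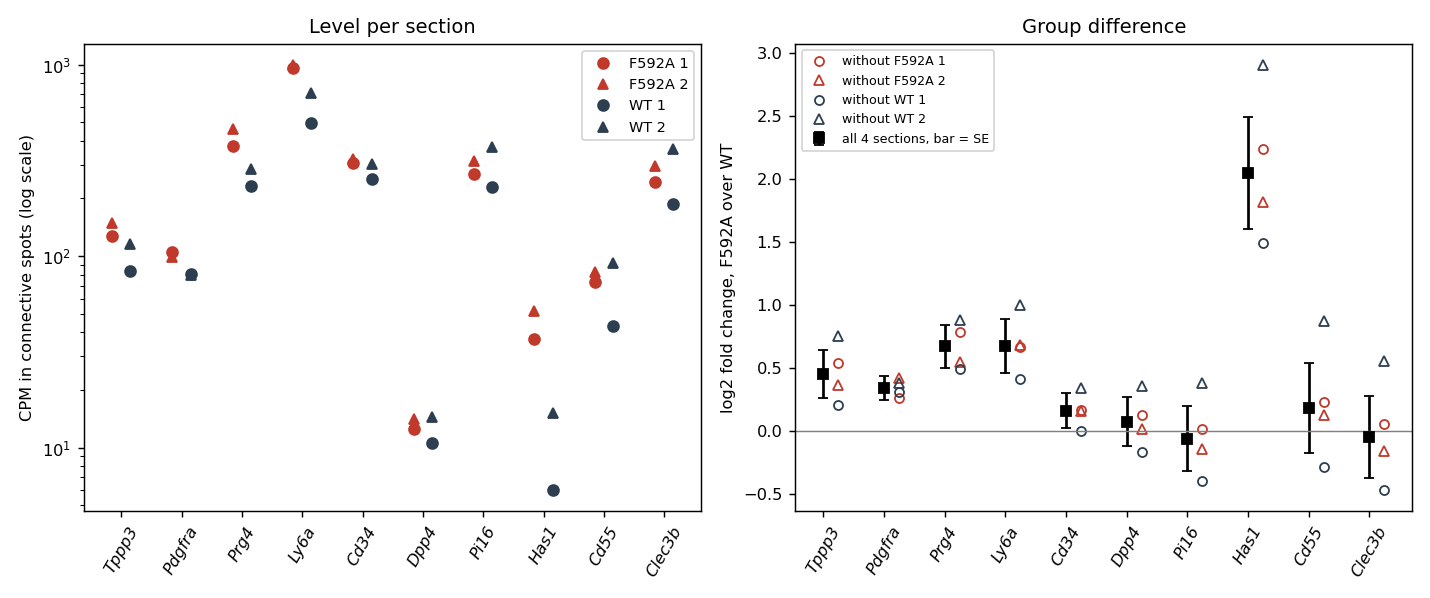
Left, CPM of each gene in the connective spots of every section (log axis; red F592A, dark WT, circle replicate 1, triangle replicate 2). Right, log2 fold change of F592A over WT with its SE (black) and with each section left out (open symbols). Has1 stands highest on the right, and Cd55, Clec3b and Pi16 move across 0 when a WT section is left out.

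Marker lists moved beside these values, and their part in the members' differences was not tested. In whole sections the endothelial list summed to 606 to 676 CPM in F592A and 726 to 801 CPM in WT, with 0 of its 14 genes positive. The macrophage list summed to 2992 to 3203 CPM in F592A and 2924 to 3066 CPM in WT, with 9 of 11 positive. The adipocyte list had 10 of 12 genes positive, and summed to 1080 to 1517 CPM in F592A and 1385 to 1395 CPM in WT. The list for synovial or mesothelial cells, another lubricating lining, was near 0, at 3.26 to 3.37 CPM in F592A and 6.6 to 17.6 CPM in WT, with 1 or 2 of its 7 genes at 0 in every section. The tenocyte list summed to 78412 and 82854 CPM in F592A 1 and F592A 2, against 79892 and 111434 CPM in WT 1 and WT 2. The groups overlapped in this sum, although 1 of its 14 genes was positive, with a median of −0.90. The Schwann and myelin list summed to 395 and 395 CPM in F592A 1 and F592A 2, against 1676 and 730 CPM in WT 1 and WT 2, with 1 of 12 genes positive. The perineurial list summed to 182 and 217 CPM in F592A, against 155 and 131 CPM in WT, with 4 of 7 positive. Mast cell genes summed to 32.7 and 73.3 CPM in F592A, against 114 and 90.8 CPM in WT, with 0 of 7 positive. T and NK cell genes summed to 10.7 and 15.0 CPM in F592A, against 20.6 and 26.2 CPM in WT, with 0 of 10 positive. The groups did not overlap for these 4 lists, nor for the endothelial list.

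The other genes of the members' pathways mostly did not pass between groups. Of 22 partners of adventitial progenitors 0 passed in whole sections, 14 were positive and the median was 0.13. The matrix gene Efemp1 was at 0.90 ± 0.22 (edgeR adjusted p = 0.258) and Tnxb, which encodes tenascin X, at 0.54 ± 0.17 (0.326), while Dact2 was at −0.63 ± 0.15 (0.246) and Limch1 at −0.60 ± 0.16 (0.276). Of 19 partners in hyaluronan turnover and lining, 0 passed, with a median of 0.016. Has2, another hyaluronan synthase, was at 0.83 ± 0.20 (edgeR adjusted p = 0.246), Ugdh, which makes the sugar precursor, at 0.56 ± 0.15 (0.282) and Cemip, which promotes hyaluronan breakdown, at −0.78 ± 0.15 (0.199). The growth factor Hbegf was at −0.61 ± 0.20 (edgeR adjusted p = 0.363). Has1 and Has2 were thus both positive, without a call for either.

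Of 6 other PDGF genes 0 passed, with a median of −0.13. The receptor-like Pdgfrl was at −0.59 ± 0.14 (edgeR adjusted p = 0.238), and the ligands Pdgfc, Pdgfd and Pdgfa at 0.29 ± 0.11 (0.408), −0.45 ± 0.18 (0.418) and −0.22 ± 0.13 (0.571). Of 8 tested complement regulators, relatives of Cd55 in function, 1 fell and 0 rose, with a median of −0.32. That gene was Clu, at −1.45 ± 0.13 (edgeR adjusted p = 0.0491), and no gene was called by edgeR when either F592A section was left out (1441 and 835 genes at an unadjusted p under 0.05). Vtn was at −0.85 ± 0.20 (edgeR adjusted p = 0.238) and Cd59a at −0.65 ± 0.23 (edgeR adjusted p = 0.386). Of 6 tested tubulin partners of Tppp3 0 passed, with a median of −0.042, and its relative Tppp was at 0.82 ± 0.24 (edgeR adjusted p = 0.308). The other named partners, Stmn1, Tuba1a and Map4, were at −0.13 ± 0.12, 0.10 ± 0.15 and −0.067 ± 0.12 (edgeR adjusted p = 0.735 to 0.868).

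Most members were denser in connective tissue than in muscle or skin. Over the 4 sections, CPM in connective spots was 3.71 to 14.6 times that in muscle spots for Has1, 2.52 to 4.25 times for Ly6a, 2.09 to 3.58 times for Pi16 and 1.7 to 2.38 times for Pdgfra. The Has1 ratios rest on 50, 16, 7 and 7 UMIs in the muscle spots of F592A 1, F592A 2, WT 1 and WT 2. The highest ratio was that of F592A 2. Tppp3 was an exception, with 0.629 to 2.14 times. It had 114 and 69.8 CPM in the muscle spots of F592A sections, against 133 and 163 CPM in those of WT sections, so the order of the groups there was the opposite of that in connective spots. Cd55 was the other exception, with 0.888 to 1.41 times. Dpp4 in connective spots was 0.509 to 2.23 times its level in epidermal spots, where the other members were 1.09 to 4.94 times.

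**Figure D2:**
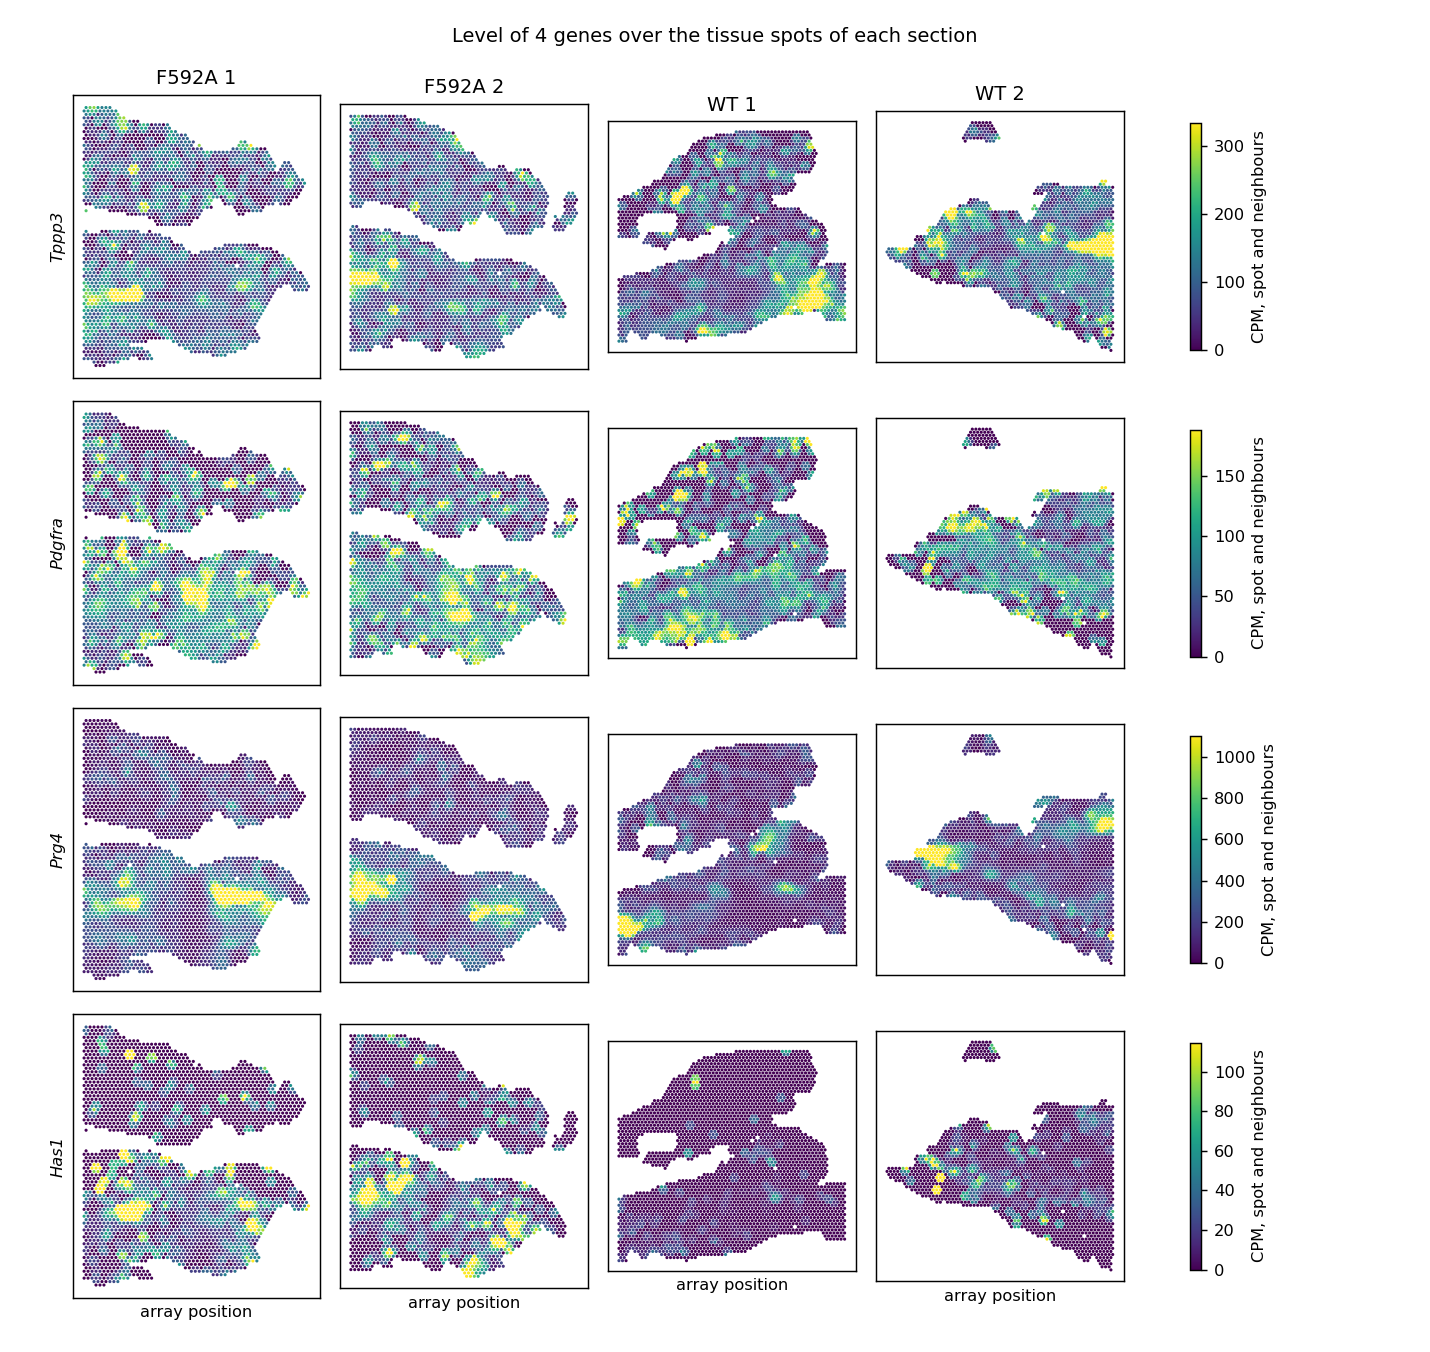
CPM of Tppp3, Pdgfra, Prg4 and Has1 over the tissue spots of the 4 sections, each spot summed with its neighbours and placed by its array position; the scale of each gene ends at its 98th percentile over all sections. Prg4 lies in a few dense patches in every section, Pdgfra is spread wide, and Has1 is sparse in WT 1, where its whole-section level was 5.34 CPM.

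The share of each member's UMIs in the spots that held most of them was also taken. The 10% of spots with most UMIs of a gene held 71.1% to 80.9% of Prg4 UMIs, 68.2% to 78.5% of Pi16 UMIs and 52.4% to 75.5% of Tppp3 UMIs, against 44.4% to 62.0% for UMIs of all genes. Has1 (83.5% to 100.0%) and Dpp4 (82.8% or more in every section), the members with the fewest UMIs, had the highest shares, and a gene with few UMIs has few spots to hold them. Spots were ordered by the gene's own UMIs, so counting alone raises the share of any gene with few UMIs per spot. These shares thus do not show by themselves that a member was patchy. At tissue edges, in spots with under 6 tissue neighbours, no member was above its inner level in all 4 sections, and the median ratio ran from 0.79 (Has1) to 1.21 (Pi16).

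Tppp3 was lower in the parts of the connective tissue richest in tendon collagen. The connective spots of each section were ranked by their share of UMIs from a tenocyte list (Tnmd, Scx, Mkx, Fmod and others), and the highest and lowest 25% were summed as tendon-rich and tendon-poor spots. By the test below, 30 of 30 muscle genes and 12 of 12 Schwann and myelin genes were lower in tendon-rich spots. So were 11 of 11 adipocyte, 13 of 14 endothelial and 15 of 22 epidermis and hair genes. Median UMIs per spot were 2687.5 to 5050 in tendon-poor and 10467 to 21762.5 in tendon-rich spots. The part of this make-up and depth in the members' changes was not tested. Tppp3 had 73.0, 109, 50.1 and 72.0 CPM in the tendon-rich spots of F592A 1, F592A 2, WT 1 and WT 2, against 160, 201, 159 and 218 CPM in their tendon-poor spots. All 4 sections had less in tendon-rich spots. The log2 fold change of tendon-rich over tendon-poor was −1.06 ± 0.14 (edgeR with section as a block, adjusted p = 0.00119). By the same test 34.8% of 13580 genes were called, 17.7% lower and 17.1% higher in tendon-rich spots, and 2 members were lower and 0 higher. The TMM scaling of the fit also matters here: in plain CPM the median gene was lower by 0.20 to 0.26 (log2) in tendon-rich spots, and the fitted changes are relative to that shift.

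The ranking rested mainly on type I collagen, since Col1a1 and Col1a2 gave 92.6% to 94.7% of the list's UMIs. Ranked by the other 12 genes of the list, 45.2% to 68.8% of the tendon-rich spots stayed tendon-rich, and Tppp3 was at −0.06 ± 0.36 (edgeR adjusted p = 0.914), so the call ended. The sections of the groups then parted. Tppp3 had 147 and 174 CPM in the tendon-rich spots of the F592A sections, against 56.3 and 88.0 CPM in those of the WT sections. The difference between groups in the change of Tppp3 from tendon-poor to tendon-rich, F592A minus WT, was 1.85 ± 0.22 with this ranking (edgeR interaction test, adjusted p = 0.0923) and 0.64 ± 0.18 with the whole list (adjusted p = 0.457). Neither passed after adjustment.

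Dpp4 was also lower in tendon-rich spots, with 8.93, 9.2, 9.24 and 10.8 CPM in F592A 1, F592A 2, WT 1 and WT 2, against 21.1, 23.0, 10.5 and 20.3 CPM in tendon-poor spots. The gap was small in WT 1 and wide in the other sections. The log2 fold change was −0.65 ± 0.19 (edgeR adjusted p = 0.033), and it did not pass without F592A 1 (0.108), F592A 2 (0.128) or WT 2 (0.0973), nor with the outer 10% in place of 25% (0.153). Ranked without the collagen genes it was −1.57 ± 0.26 (edgeR adjusted p = 0.00365).

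Prg4 lay differently against the collagen-rich spots in the groups. It had 292 and 319 CPM in the tendon-rich spots of F592A sections with 293 and 557 CPM in their tendon-poor spots, against 336 and 357 CPM in the tendon-rich and 81.2 and 156 CPM in the tendon-poor spots of WT sections. Tendon-rich spots were thus alike in the 4 sections, and it was the tendon-poor spots that stood higher in F592A. Over both groups its log2 fold change was 0.86 ± 0.41 (edgeR adjusted p = 0.14), with 0.37 without WT 1 (0.458) and 1.33 without F592A 2 (0.0308). The F592A minus WT difference of that change was −2.02 ± 0.35 (edgeR interaction test, adjusted p = 0.289; DESeq2 adjusted p = 0.000209), where edgeR called 2 of 13580 genes (0.0147%) and DESeq2 18. Ranked without the collagen genes, Prg4 was higher in tendon-rich spots, at 2.45 ± 0.19 (edgeR adjusted p = 0.000132), and the interaction was −0.52 ± 0.32 (adjusted p = 0.915). In that ranking 16.3% of 13953 genes were higher and 19.2% lower.

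Has1 had a log2 fold change of 0.55 ± 0.20 for tendon-rich over tendon-poor (edgeR adjusted p = 0.065; 0.85 and 0.00805 without F592A 1), and 1.02 ± 0.17 in the ranking without collagen genes (edgeR adjusted p = 0.0035). Its level was 25.3, 46.0, 5.97 and 14.9 CPM in the tendon-rich spots of F592A 1, F592A 2, WT 1 and WT 2, against 32.8, 35.4, 2.66 and 10.6 CPM in tendon-poor spots. The difference between groups was thus present in both kinds of spot. Pdgfra, Ly6a, Cd34, Pi16, Cd55 and Clec3b were at −0.24 to 0.09 (edgeR adjusted p = 0.162 to 0.95). With the outer 10% in place of 25%, Ly6a (0.88 ± 0.24, edgeR adjusted p = 0.0179), Clec3b (0.63 ± 0.20, 0.0357), Prg4 (2.22 ± 0.34, 0.000995) and Has1 (1.56 ± 0.28, 0.00236) were called higher and Tppp3 (−1.02 ± 0.34, 0.0392) lower. In that setting 18.2% of 12050 genes were called higher and 19.6% lower.

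Levels were also followed by distance from the nearest tendon-rich spot. With the whole list, Tppp3 in F592A 1 was at 73.0, 112, 136, 180 and 119 CPM at 0, 1, 2, 3 to 4 and 5 or more spot spacings, and in WT 2 at 72.0, 118, 121, 232 and 204 CPM. F592A 2 peaked at 2 spacings with 209 CPM, and WT 1 was highest at 5 or more with 187 CPM. Prg4 peaked 2 spacings away in both F592A sections, at 496 and 726 CPM, and was highest in the tendon-rich spots themselves in both WT sections. With the list without collagen genes, Prg4 was highest at 0 spacings in all 4 sections, at 476 and 599 CPM in F592A and 328 and 439 CPM in WT. Tppp3 then declined with every step in the F592A sections, to 66.2 and 74.1 CPM at 5 or more, while in the WT sections it was lowest at 0 spacings. Dpp4 was lowest at 0 spacings in all 4 sections with that list.

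**Figure D3:**
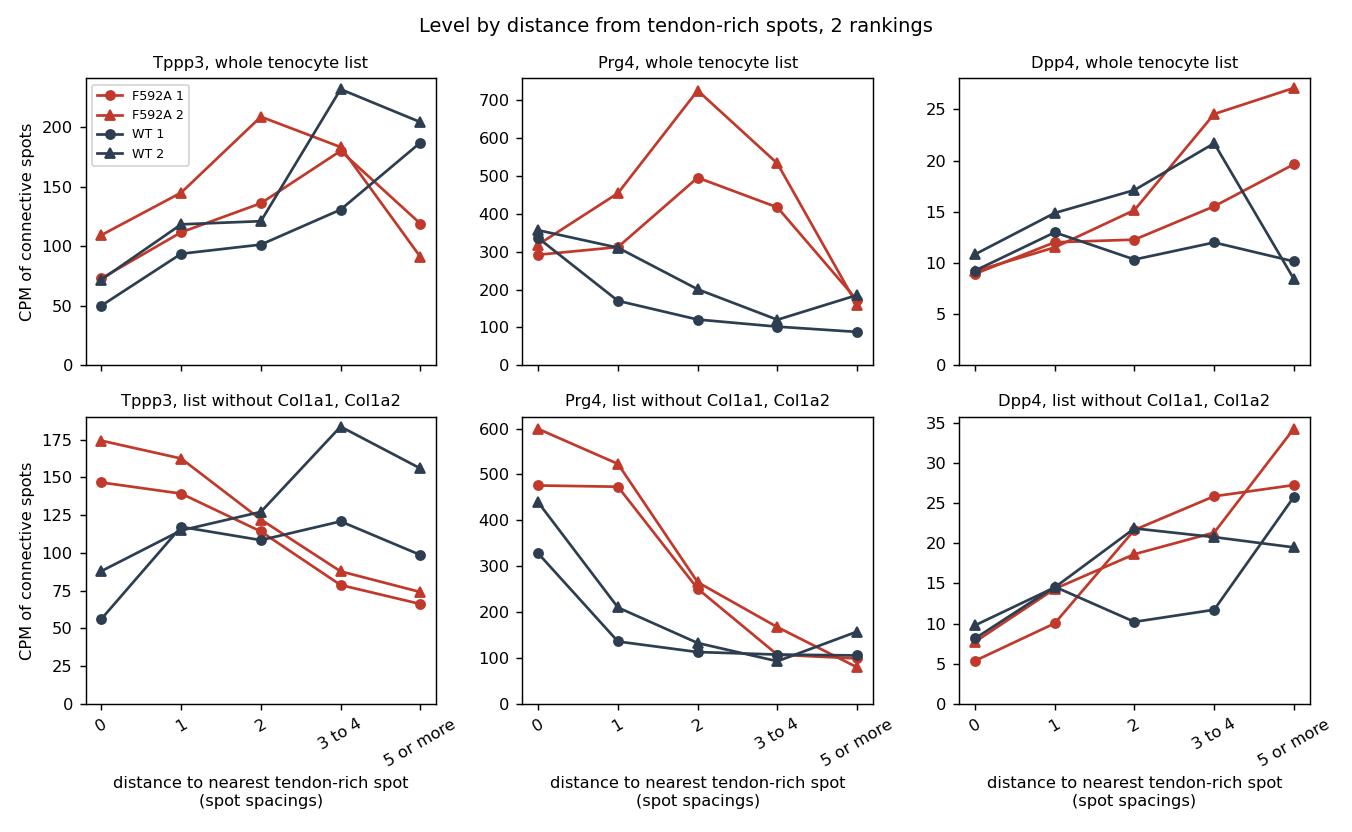
CPM of Tppp3, Prg4 and Dpp4 in connective spots by distance, in spot spacings, from the nearest tendon-rich spot, for F592A (red) and WT (dark) sections; the upper row ranks spots by the whole tenocyte list and the lower row by the list without Col1a1 and Col1a2. In the lower row Tppp3 starts at 147 and 174 CPM in F592A and at 56.3 and 88.0 CPM in WT.

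Among the partners, 3 of 22 adventitial genes were higher and 9 lower in tendon-rich spots by edgeR, with a median of −0.12 against −0.0033 over all genes; of all genes 17.1% were higher and 17.7% lower. Limch1 (−1.72 ± 0.16), Pla1a (−1.22 ± 0.20) and Efemp1 (−0.78 ± 0.21) were lower, and Sema3c (0.91 ± 0.15), which encodes a secreted semaphorin, was higher (edgeR adjusted p = 0.000412 to 0.0196). Of 17 tested hyaluronan and lining partners 6 were higher and 3 lower, with a median of 0.29. The link protein Hapln1 (2.07 ± 0.42) and Cemip (1.81 ± 0.29) were higher, and Clic5 (−1.73 ± 0.21) and Tspan15 (−1.09 ± 0.21) lower (edgeR adjusted p = 0.000798 to 0.00651). Of 6 PDGF genes 4 were higher and 1 lower, with a median of 0.69: Pdgfrl was at 1.70 ± 0.17, Pdgfc at 1.20 ± 0.16, Pdgfd at 0.70 ± 0.16 and Pdgfa at 0.68 ± 0.095 (edgeR adjusted p = 0.000456 to 0.0103). Pdgfra itself was at −0.02 ± 0.096 (edgeR adjusted p = 0.906). Of 8 complement regulators 0 were higher and 1, Vtn (−0.97 ± 0.17, edgeR adjusted p = 0.00313), lower. Of 6 tubulin partners Map1b (0.65 ± 0.14) and Tuba1a (0.43 ± 0.10) were higher and Tppp (−1.23 ± 0.18) and Stmn1 (−0.62 ± 0.16) lower (edgeR adjusted p = 0.00174 to 0.019). Ranked without the collagen genes, the counts higher and lower were 5 and 7 of 22 adventitial genes, 7 and 1 of 17 hyaluronan and lining genes, 5 and 1 of 6 PDGF genes and 4 and 2 of 6 tubulin genes, against 16.3% and 19.2% of all genes. The adventitial genes with the largest called changes were then Efemp1 (−2.40 ± 0.28), Tnxb (−1.07 ± 0.34), Axin2 (−1.04 ± 0.14) and Igfbp6 (0.99 ± 0.21), with edgeR adjusted p of 0.000808 to 0.0418. Hapln1 (2.30 ± 0.25) and Pdgfrl (1.39 ± 0.20) were again higher (edgeR adjusted p = 0.000594 to 0.00207).

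To see which tissue the members kept to, the 5% of spots richest in each marker list were summed and set against the whole section. These are descriptions without a test. Prg4 was most raised in chondrocyte-rich spots, at a median of 2.01 times the section (1.47 to 3.71), where Has1 was at 1.4 times (1.35 to 1.95). The chondrocyte list shares Comp with the tenocyte list, so these spots need not hold cartilage cells. Tppp3 was at 0.565 times (0.516 to 0.604) in tenocyte-rich spots and at 1.84 times in spots rich in mural cell genes, though there it ran from 0.633 to 3.12. The mural list shares Des with the muscle list, and muscle genes gave on average 4.61% to 9.62% of the UMIs of mural-rich spots. The tenocyte list is again mainly type I collagen by UMIs. In the ranking of connective spots without Col1a1 and Col1a2, described above, Tppp3 was not called. Macrophage-rich spots held more of most members, with Clec3b at 1.87, Pi16 at 1.63, Ly6a at 1.58, Dpp4 at 1.54, Pdgfra at 1.52 and Cd34 at 1.48 times, each above 1 in all 4 sections. Cd34 was at 1.42 times (1.22 to 1.58) in endothelial-rich spots, and Dpp4 at 1.64 times (1.09 to 1.89) in spots rich in Schwann and myelin genes. With the richest 10% of spots that Dpp4 value ran from 0.854 to 1.83 and was above 1 in 3 sections. Dpp4 was low, at 10.5 to 14.2 CPM in whole sections, so its ratios rest on few UMIs. In muscle-rich spots every member had a median under 1, from 0.174 (Has1) to 0.871 (Cd55).

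**Figure D4:**
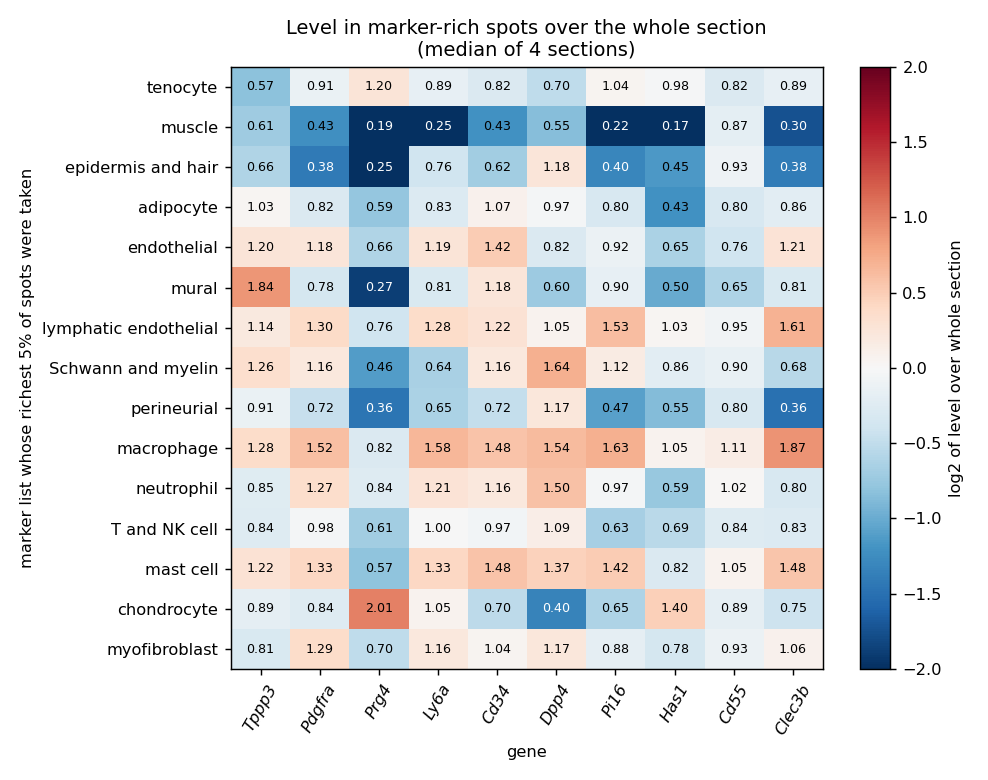
Median over the 4 sections of each gene's CPM in the 5% of spots richest in a marker list, divided by its CPM in the whole section (number in each cell; colour is its log2). The Prg4 and chondrocyte cell reads 2.01, and the macrophage row is above 1 for 9 of the 10 genes.

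Tppp3 and Pdgfra together define the sheath progenitor in other work. How many connective spots held both followed the depth used, and whether they met more often than apart depended on the setting. Connective spots were thinned to 2000 UMIs, which left 1454 to 1734 spots per section. In these, 41 of 1561 spots of F592A 1 and 42 of 1734 of F592A 2 held both genes, against 34 of 1582 in WT 1 and 51 of 1454 in WT 2. Of spots with Tppp3, 15.9% and 14.4% held Pdgfra in the F592A sections, against 14.7% and 17.3% in the WT sections. Of spots without Tppp3 the shares were 16.1% and 14.6% in the F592A sections, against 14.0% and 14.4% in the WT sections. The difference between these shares averaged −0.17 ± 0.07 percentage points in F592A and 1.77 ± 1.57 in WT (SD, n = 2 each), a gap of −1.94 with an exact two-sided permutation p of 0.33, the smallest that 2 against 2 allow. Each section's value rests on 232 to 295 spots with Tppp3 and on the random thinning used. The SD holds no counting error, so the small SD in F592A does not give the precision of these values. At 1000 UMIs the difference was positive in all 4 sections, at 0.31 and 0.97 points in F592A and 6.77 and 2.23 points in WT, from 12 to 22 spots with both. At 2000 UMIs it was also positive in all 4 over all kept spots, at 2.00 and 1.78 points in F592A and 0.85 and 2.32 points in WT, and with limits of 5% muscle and 1% epidermis, at 1.46 and 2.27 points in F592A and 0.80 and 1.45 points in WT. At 4000 UMIs it was 2.02 and 2.98 points in F592A and 3.35 and −1.92 points in WT. Spots with both made up 2.15% to 3.51% of connective spots at 2000 UMIs and 8.18% to 9.34% at 4000 UMIs. Without thinning, 29.9% to 34.5% of spots held both and the difference was 25.8 to 48.7 points. The share with both is thus set by depth and is not read as rare or common. Thinned to the same depth, Tppp3 was found in 9.29% to 18.8% and Pdgfra in 5.92% to 8.57% of muscle-rich spots, which serve as the level outside connective tissue, against 14.7% to 20.3% and 14.1% to 16.1% of connective spots. The Tppp3 shares overlap those of muscle-rich spots and are not read as expression by themselves.

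The spots with both genes differed in their Prg4 between groups. Prg4 was at 537 and 959 CPM in the spots with both in F592A, against 105 and 87.9 CPM in those of WT. In spots with neither it was at 361 and 360 CPM in F592A, against 247 and 312 CPM in WT. In F592A the spots with both were thus above those with neither, and in WT below. Spots with Tppp3 alone had the same order, at 511 and 655 CPM in F592A and 159 and 257 CPM in WT. The pattern was therefore not particular to spots with both genes. With Pdgfra alone Prg4 was at 286 and 470 CPM in F592A and 231 and 240 CPM in WT. The sums with both rest on 41, 42, 34 and 51 spots, and no test was made.

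Several other pairs had larger differences of this kind. At 2000 UMIs per spot, spots with Pi16 held Clec3b more often than spots without it in all 4 sections, by 4.77 and 4.03 points in F592A and 16.5 and 13.5 points in WT. The mean difference over the sections was 9.03 points for Cd34 in spots with Ly6a, 8.56 for Clec3b in spots with Cd34 and 8.12 for Pi16 in spots with Ly6a. For Clec3b it was 5.01 points in spots with Tppp3 and 10.3 points in spots with Has1. Each was positive in all 4 sections. The Has1 value rests on few spots, since 11 and 39 spots held Has1 in WT 1 and WT 2, against 94 and 125 in F592A 1 and F592A 2. Of the 45 pairs, only Dpp4 in spots with Prg4 was negative in all 4 sections, with a mean of −0.737 points.

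Over wider areas, 4 of the 6 adventitial genes, Ly6a, Cd34, Pi16 and Clec3b, varied together, while Tppp3 and Cd55 were less tied to them. Dpp4 also had low values, but its level was too low to judge. Each section was divided into blocks of 6 array rows by 12 columns (64 to 94 blocks), and Pearson r was taken over blocks of log2(CPM + 20). Blocks share their library and their tissue make-up, so r is given as a description. The mean r over sections was 0.66 for Ly6a and Cd34, 0.65 for Ly6a and Clec3b, 0.64 for Cd34 and Pi16 and 0.62 for Cd34 and Clec3b. The lowest among these 4 genes was 0.52, for Pi16 and Clec3b. Pdgfra, outside this set, had 0.34 (Pi16) to 0.51 (Clec3b) with them. The 4 genes also followed the sums of whole marker lists. They had 0.47 (Pi16) to 0.75 (Ly6a) with the macrophage list and −0.74 (Ly6a) to −0.29 (Pi16) with the muscle list. Varying together was thus not particular to adventitial genes. Prg4 and Has1, the lining genes, had 0.56, with 0.65 and 0.72 in F592A sections and 0.38 and 0.47 in WT sections. Has1 had 229 and 427 UMIs in WT 1 and WT 2, against 1444 and 1616 in F592A 1 and F592A 2. Whether its few counts lowered r in WT was not tested. Has1 was about as close to Ly6a (0.55) and Clec3b (0.52) as to Prg4. Tppp3 and Pdgfra had 0.19, and Tppp3 was closest to Clec3b at 0.43. Tppp3 and Prg4 had 0.29 and 0.52 in F592A sections, against −0.14 and −0.18 in WT sections, so the signs parted by group. Cd55 had 0.28 to 0.34 with Ly6a, Cd34, Pi16 and Clec3b. Dpp4 reached at most 0.23, with Pi16. Its whole-section level, 10.5 to 14.2 CPM, lay under the 20 CPM added before the log, which flattens its variation over blocks.

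**Figure D5:**
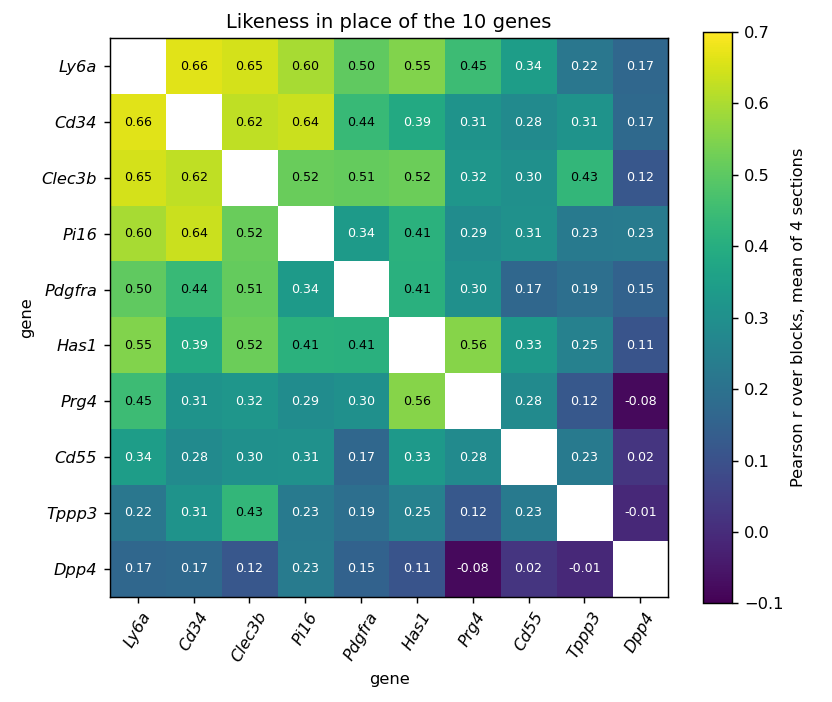
Mean over the 4 sections of Pearson r between members over tissue blocks, from log2(CPM + 20). The cells among Ly6a, Cd34, Clec3b and Pi16 read 0.52 to 0.66, and those of Dpp4 −0.08 to 0.23.

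Of 6958 genes at 20 CPM or more, the 3 most like each member over blocks were found from the mean r over the 4 sections. Ly6c1, a paralog of Ly6a made by endothelium and some monocytes, came first for Ly6a (0.85), Cd34 (0.73), Clec3b (0.69) and Pi16 (0.66). Ly6a was followed by S100a10 (0.82) and Fbn1 (0.80), Cd34 by Fbn1 (0.67) and Ly6a (0.66), Clec3b by Igfbp6 (0.69) and Serpinb6a (0.68), and Pi16 by Cd34 (0.64) and C4b (0.60). Fbn1, which encodes a fibrillin, and Igfbp6 belong to the adventitial partner list. Prg4 was most like Comp (0.70), Ecrg4 (0.67) and Col11a1 (0.63), and Comp and Col11a1 belong to the tenocyte list, Comp also to the chondrocyte list. Has1 was most like Lbp (0.60), Fbn1 (0.59) and Vcan (0.58), which encodes a proteoglycan that binds hyaluronan. Tppp3 was most like Igfbp6 (0.44), Clec3b (0.43) and Serpinb1a (0.41), and Pdgfra most like C1qc (0.66), a complement gene of macrophages, Dcn (0.64) and Serping1 (0.64). Cd55 had the weakest matches, Sema3c (0.39), Ly6c1 (0.38) and Scara5 (0.37), whose lowest r over the sections was 0.16 to 0.23. Dpp4 lay under 20 CPM and was not matched. Blocks of 4 by 8 kept 1 of 3 genes for Tppp3, Has1, Cd55 and Clec3b, 2 for Pdgfra, Ly6a and Pi16 and 3 for Prg4 and Cd34.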

How the data were processed

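Raw UMI counts of genes in tissue spots were deposited, made with Space Ranger 1.3.0 per the file headers, with mm10 and Seurat 3 named in the submitters' processing notes. The aligner and strand settings are not given in the sources used here. Spots under 500 UMIs, 3 or 4 per section, were dropped, and counts were summed per section, since spots are not replicates. Sums were tested with edgeR 4.0.16 on R 4.3.3 (quasi-likelihood, TMM, filterByExpr, Benjamini-Hochberg over all genes tested, threshold 0.05), and an SE is the size of a log2 fold change divided by the root of its F statistic. Also tried were DESeq2 1.42.0, scaling by RLE, testing without the filter, leaving out each section, 1000 UMIs per spot, a replicate block and other spot limits. The interaction test, the distance profile without collagen genes and the crossed block were chosen after seeing the data. The members and lists were chosen with earlier results of these data known. Named were all 10 members, of each other pathway list the 4 smallest p-values and, by location, the 4 largest called folds, and the 3 genes most like each member. A gene that this rule names among the complement regulators is not reported here. Python 3.11.15, numpy 2.4.6, pandas 2.3.3, scipy 1.17.1 and matplotlib 3.10.9 were used, and the fits were tested on simulated data. With 30154873 UMIs or more per section, counting error is small except for Dpp4 and Has1. Percentages of spots are given without a counting error. Of the listed genes 1, Ccl21a, was not used.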

Additional observations from a re-analysis of the deposited data

Results flagged for a closer look

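Prg4 in tendon-rich against tendon-poor spots differed between the groups: the F592A minus WT difference of the log2 fold change was −2.02 ± 0.35 (edgeR interaction test, adjusted p = 0.289; DESeq2 adjusted p = 0.000209). The value stood out because DESeq2 called the difference between groups, although edgeR did not. It ran from −2.41 to −1.61 over the leave-outs of a section, with edgeR adjusted p of 0.0669 to 0.269, and was −0.52 with the tenocyte list without Col1a1 and Col1a2 (adjusted p = 0.915). Tendon-poor spots held 293 and 557 CPM of Prg4 in F592A and 81.2 and 156 CPM in WT. Samples that stand out within a group were not looked for, because each group has 2 sections.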

How the results depend on the processing

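The number of genes called between groups was unstable. In whole sections, against 13, it was 418 with DESeq2, 5 with RLE scaling, 546 with no filter on low counts, 3 without muscle, epidermal, mitochondrial and haemoglobin genes, and 0 to 390 with a section left out: 0 without F592A 1 (1441 at an unadjusted p under 0.05), 0 without F592A 2 (835), 349 without WT 1 and 390 without WT 2. In connective spots, against 8, it was 445 with DESeq2, 486 with no filter, 4 with limits of 20% muscle and 4% epidermis, and 0 to 214 with a section left out, with 1376 and 1002 at an unadjusted p under 0.05 where the edgeR count was 0. The cause was not tested. The labels do not say whether sections with the same replicate number share an animal: with the replicate block 7 genes passed in whole sections and 9 in connective spots, 4 and 3 of them shared with the fit without it. Same-numbered sections deviated against each other (r = −0.17), and with the numbers crossed the block gave 189 and 64. The 4727 genes called between tendon-rich and tendon-poor spots were 3465 to 5140 under the 11 alternatives, 3465 to 4314 of them with a section left out. The interaction count, 2, was 0 to 11 with a section left out, 1 without Col1a1 and Col1a2 and 18 with DESeq2. Co-detection of Tppp3 and Pdgfra changed direction between groups: against −1.94 points it was 1.79 thinned to 4000 UMIs, 2.32 at 2 or more UMIs of each gene, 0.307 over all kept spots and 0.74 with limits of 5% and 1%, with −3.05 to −0.828 over leave-outs. Its mean over the sections, 0.797 points, was 2.57 thinned to 1000 UMIs, 37.1 not thinned and 0.103 to 1.14 over leave-outs.

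Members with uncalled values near 0 changed sign. Between groups, leave-outs gave −0.068 to 0.29 (Cd34), −0.13 to 0.32 (Dpp4), −0.48 to 0.34 (Pi16), −0.30 to 0.80 (Cd55) and −0.54 to 0.48 (Clec3b) in whole sections. In connective spots they gave −0.17 to 0.36 (Dpp4), −0.39 to 0.38 (Pi16), −0.28 to 0.88 (Cd55) and −0.47 to 0.55 (Clec3b), and Clec3b was at 0.039 with the replicate block as numbered and crossed. Between tendon-rich and tendon-poor spots, leave-outs gave −0.081 to 0.075 (Pdgfra), −0.11 to 0.25 (Ly6a), −0.27 to 0.15 (Pi16), −0.16 to 0.062 (Cd55) and −0.14 to 0.18 (Clec3b). With no filter Pdgfra was at 0.0025 and Pi16 at 0.0020, and with no section block Clec3b at −0.053. With the outer 10% Pdgfra was at 0.33, Cd34 at 0.10, Pi16 at 0.47 and Cd55 at 0.35, and without the collagen genes Ly6a at −0.16 and Clec3b at −0.0080. With the richest 10% of spots, 140 of 160 member values kept within 1 SD. Depth limits Dpp4, with 413 to 527 UMIs per section, and Has1 in WT.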
